A study of Mus musculus with 7 samples.

Results

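Voltage-gated sodium and calcium channel genes were followed across the cell types of adult mouse cortex. The members were all genes in the single-nucleus count tables whose symbols begin with Scn, a number and a or b, or with Cacna, Cacnb or Cacng. The rule used names only and took 40 of 25871 cellular genes. RNA was counted in V1 nuclei of adult male C57BL/6J mice, 6 to 10 weeks old, whose visual cortex had been injected with the SST library of the Paralleled Enhancer Single Cell Assay (PESCA) in AAV9. These nuclei form 1 sample of 10 inDrops libraries in 2 sets of 5. According to the labels each animal gave 5 libraries, but they do not name the animal of each set, and all of these mice carried the virus. Chromatin accessibility was measured by ATAC-Seq in 6 uninjected samples, 2 replicates each of SST, PV and VIP interneurons, from whole cortex of mice 6 to 12 weeks old. The nuclei were isolated by the INTACT method with an antibody to GFP, from offspring of the nuclear tag line SUN1-2xsfGFP-6xMYC and Sst-IRES-Cre, Pv-Cre or Vip-IRES-Cre. A Cre line tags every cell that has expressed its driver, so these populations are defined by the driver and not by the markers used for the nuclei. The labels give male for every sample, while the protocol text of the ATAC-Seq samples names both sexes. The methods of the study describe each ATAC-Seq replicate as a separate experiment on nuclei of a single animal, which the labels do not state.

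Sodium channels carry the rising phase of the action potential. Each has a pore subunit, named Scn with the letter a, and accessory beta subunits, named Scn with the letter b, that set its gating and its place in the membrane. Calcium channels have a pore subunit of the Cav1 (L-type), Cav2 (presynaptic and dendritic P/Q-, N- and R-type) or Cav3 (low-voltage-activated, T-type) family. Cytoplasmic beta subunits and extracellular alpha2delta subunits bring Cav1 and Cav2 pores to the membrane, and the alpha2delta subunits include the targets of gabapentin-like drugs. Most gamma subunit genes of the brain encode transmembrane AMPA receptor regulatory proteins, which accompany glutamate receptors.

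Of 47348 barcodes, 32335 nuclei with more than 200 cellular UMIs (unique molecular identifiers, each a counted transcript) were kept, with a median of 712 UMIs. The libraries held 2457 to 3629 nuclei and 2496224 to 3041931 UMIs each. Among the kept nuclei, 5476 of 25866 barcode names occurred in more than 1 library, at most in 7, and whether any are the same nuclei was not tested. Nuclei were clustered without the member genes, and clusters were called by the types whose markers they held. They gave 884 SST-like, 1279 PV-like, 568 VIP-like and 343 NPY-like interneuron nuclei, excitatory nuclei of layers 2/3, 4, 5 IT, 5 PT, 5 NP and 6 (528 to 6320), 3578 excitatory nuclei without a layer that count among the excitatory-like ones, and 5 types grouped here as glia-like (astrocyte, oligodendrocyte, oligodendrocyte precursor or OPC, microglia and vascular, 439 to 1505). The summed level of SST markers, in UMIs per 10000, was 172 in SST-like nuclei against 5.83 or less in every other type, that of PV markers 22.1 in PV-like against at most 4.03, and that of VIP markers 122 against at most 4.44. NPY markers were at 177 in NPY-like, 28.7 in SST-like, 22.1 in VIP-like and 3.64 in PV-like nuclei. Markers of excitatory cells stood at 2.73 to 4.39 in the interneuron types and at 14.3 to 24.3 in the layers. The layers were told apart less sharply. Among the layers, each list but that of layer 5 IT was highest in its own layer, at 9.12 to 20.6, while layer 5 IT markers were at 4.19 there and 7.25 in layer 5 NP. Layer 6 markers stood at 14.3 in layer 6 and 9.07 in layer 5 NP, and layer 2/3 markers at 9.12 in layer 2/3 and 8.87 in SST-like nuclei. The ATAC-Seq samples had 1801883 to 2256073 reads in 323369 reference regions. Regions at Sst held 22.6 and 24.8 reads per 1000000 reads (CPM) in the SST samples, those at Pvalb 33.1 and 42.7 in the PV samples and those at Vip 15.4 and 18.3 in the VIP samples, each above the other 4 samples. Regions at Slc17a7, a marker of excitatory neurons, held 18.3 and 26.4 in the PV, 17.7 and 24.1 in the SST and 12.1 and 14.4 in the VIP samples, and its part in the contrasts with VIP was not tested. The VIP samples stood apart: on log2 values across regions they correlated with another type at no more than 0.649, and SST and PV with each other at up to 0.847.

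A level below is the number of UMIs per 10000 UMIs of the nuclei of a type, pooled over libraries. Since the 10 libraries come from 1 sample, they are not biological replicates, and no p-value is given for RNA. A gene is called higher or lower when the levels of 2 groups differ at least 2-fold and at least 10 UMIs would be expected in the smaller group. Intervals of folds are exact 95% intervals that cover the counting of UMIs only. Fewer cells that express a gene and less RNA in each cell cannot be told apart in a pooled level. The method counts transcript ends, so that a gene's share of the UMIs of its family also depends on how its own end is captured, and such shares are compared between types and not between genes. Member UMIs numbered 136094, or 0.478% of all, with 25 members at 417 to 25814 UMIs and the other 15 at 7 to 292.

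The stretches shown here come from the gene starts and introns that the comparisons below turn on, in mouse build GRCm38 on the + strand. The first lies in an intron of Cacna2d2 at chr9:107456691-107456990 and the next in an intron of Cacng4 at chr11:107768384-107768683, and both were more accessible in VIP. Each is the central 300 bases of its region, with E-boxes (CANNTG, which reads the same on both strands) in capitals. The last is the 250 bases before the RefSeq start of Scn4b, chr9:45138374-45138623, with the 50 bases nearest that start in capitals. The GENCODE annotation, which gives the gene starts used for regions, puts the Scn4b start at 45138395. By it most of this stretch, with all its capitals, lies inside the gene.
Cacna2d2 region 57228: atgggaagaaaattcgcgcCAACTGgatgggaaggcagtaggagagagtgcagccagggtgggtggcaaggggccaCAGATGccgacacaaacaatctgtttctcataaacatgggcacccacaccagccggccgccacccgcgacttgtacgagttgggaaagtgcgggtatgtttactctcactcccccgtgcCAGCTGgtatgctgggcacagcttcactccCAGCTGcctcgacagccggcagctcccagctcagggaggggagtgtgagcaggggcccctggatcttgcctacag
Cacng4 region 26024: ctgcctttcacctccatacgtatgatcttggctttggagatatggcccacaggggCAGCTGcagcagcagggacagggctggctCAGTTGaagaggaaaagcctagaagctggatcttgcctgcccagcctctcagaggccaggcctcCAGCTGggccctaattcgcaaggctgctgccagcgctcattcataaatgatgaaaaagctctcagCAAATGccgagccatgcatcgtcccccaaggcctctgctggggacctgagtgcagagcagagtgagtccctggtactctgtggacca
Scn4b promoter: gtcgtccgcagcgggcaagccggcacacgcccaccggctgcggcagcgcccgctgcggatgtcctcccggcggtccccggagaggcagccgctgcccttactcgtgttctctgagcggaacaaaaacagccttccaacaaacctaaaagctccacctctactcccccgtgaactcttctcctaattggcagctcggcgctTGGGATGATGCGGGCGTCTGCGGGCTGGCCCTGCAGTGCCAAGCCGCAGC
These names give the bases from the gene start to the middle of the region. The first and the next stretch held 4 E-boxes each. Such a match is common, since 77.3% of 40329 windows of 300 bases at tested regions held at least 1, and 148 of 176 windows at members did (84.1%). A homeodomain site (TAATTA), an AP-1 site (TGANTCA), a MEF2 site and a nuclear receptor half-site (AGGTCA), searched on both strands, were not among the letters of the 2 region windows printed here and were found in 3.8%, 11%, 3.37% and 12.3% of all windows. The 300 bases around the RefSeq start of Scn4b, 250 before and 50 after it, had no match to any of these motifs. Of 32851 such stretches at RefSeq starts 72.3% had an E-box.

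Interneurons differed from excitatory cells in 8 members and each interneuron type from the others in 4 to 11. Cacna2d2, Cacng5, Cacng4 and Cacng7 were higher in interneuron-like than in excitatory-like nuclei (4 of 31 members that had enough UMIs, with 5.59% of all genes higher) and Cacna2d1, Cacna1e, Cacnb1 and Scn2a were lower (4, with 7.68% of all genes lower). PV-like nuclei had 4 of 28 members higher than the other interneuron types (4.72% of all genes) and 7 lower (6% of all genes). SST-like nuclei had 4 of 27 higher (2.43%) and 3 lower (5.43%). VIP-like nuclei had 5 of 24 higher (3.45%) and 3 lower (8.4%), and NPY-like nuclei had 1 of 22 higher (3.19%) and 3 lower (7.55%). Over the members tested, the median fold was 0.876 in PV-like and 1.11 in SST-like nuclei against the other interneuron types, while that of all genes was 1.04 and 0.963. Most of the members tested thus lay within 2-fold in each comparison. When each nucleus was typed by its own marker UMIs, 4 of the 8 calls between interneurons and excitatory nuclei stayed. Of the PV-like, SST-like, VIP-like and NPY-like calls, 9 of 11, 3 of 7, 4 of 8 and 2 of 4 stayed.

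**Figure D1:**
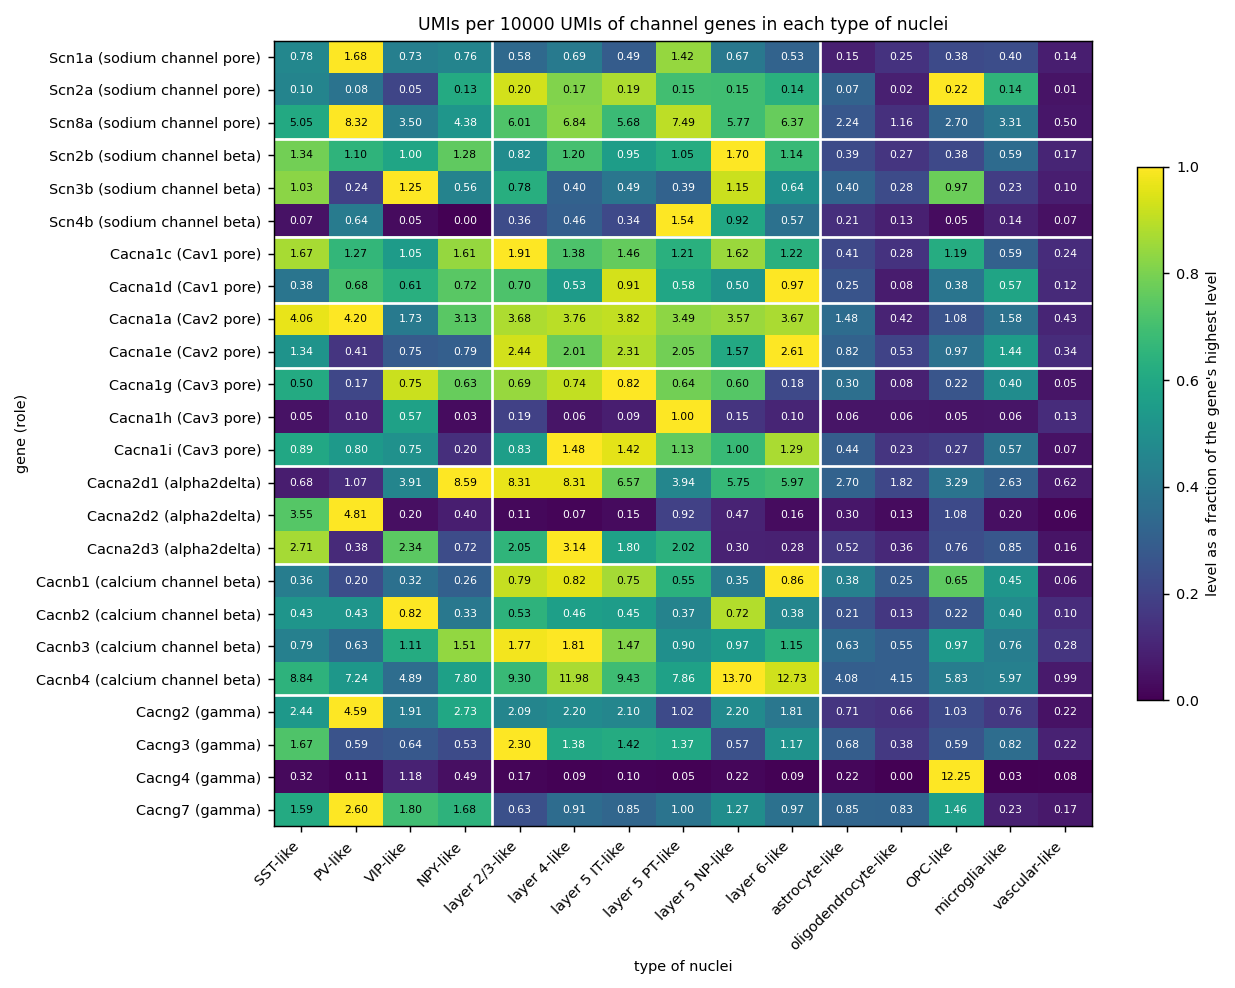
Heat map of the level (UMIs per 10000 UMIs) of members with at least 300 UMIs in each type of nuclei, each as a fraction of the gene's highest level among the types. Cacna2d2 peaks in PV-like and SST-like nuclei, Cacng4 in OPC-like nuclei, and Cacna1h and Scn4b in layer 5 PT-like nuclei.

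**Figure D2:**
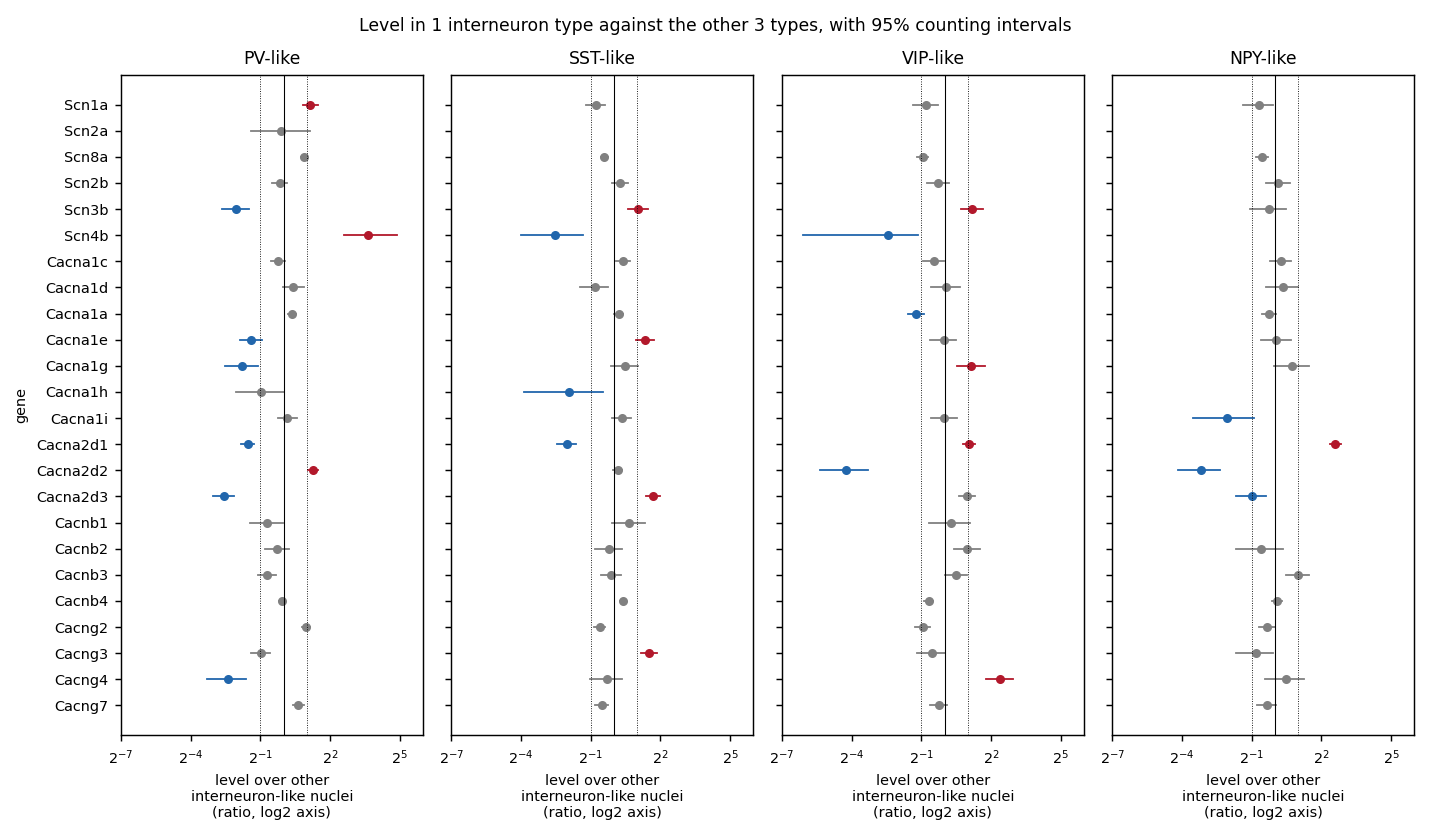
Ratio of the level in PV-like, SST-like, VIP-like and NPY-like nuclei to the other 3 interneuron types, on a log2 axis, with 95% counting intervals; dotted lines mark 2-fold, red points are higher and blue points lower by at least that, and members with too few UMIs have no point. The farthest points are Scn4b in PV-like (12.5-fold higher) and Cacna2d2 in VIP-like nuclei (18.8-fold lower).

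Among sodium channel pores, Scn1a, the gene mutated in Dravet syndrome, was highest in PV-like nuclei at 1.68 UMIs per 10000, with libraries at 0.959 to 2.30 and a median of 1.86. Its level was 0.778 in SST-like, 0.728 in VIP-like and 0.757 in NPY-like nuclei, which lay within each other's library ranges. PV-like nuclei were 2.21-fold higher than the other interneuron types (interval 1.76 to 2.79), in 10 of 10 libraries. Scn8a, whose pore carries much of the current at the axon initial segment, was at 8.32 in PV-like nuclei (libraries 7.52 to 9.32) and at 3.50 in VIP-like nuclei (1.53 to 4.94), and no library of one overlapped the other. Against all other interneuron types PV-like nuclei were higher in 10 of 10 libraries, below the 2-fold limit. Scn2a, prominent in excitatory axons, had 25 UMIs in interneuron-like and 356 in excitatory-like nuclei, and lay just past 2-fold lower with an interval of 1.34 to 3.14.

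Sodium channel beta subunits differed among the interneuron types. Scn4b, the subunit linked to resurgent sodium current and fast firing, was at 0.638 in PV-like nuclei (libraries 0.205 to 0.919, median 0.704), 0.0730 in SST-like and 0.0455 in VIP-like nuclei, and had no UMI among 303795 in NPY-like nuclei, where the upper limit of the level is 0.121. With 85 UMIs against 8 in the other interneuron types, PV-like nuclei were 12.5-fold higher (interval 6.06 to 29.9), in 10 of 10 libraries. SST-like nuclei, on 6 UMIs, were 5.75-fold lower than the other types (2.54 to 16.1). VIP-like nuclei had 2 UMIs against 91, levels of 0.0455 and 0.370, with an interval of 2.19 to 68.2 for the fold. When each nucleus was typed by its own marker UMIs in place of clusters, Scn4b stayed 3.31-fold higher. Scn3b was the reverse: 0.240 in PV-like nuclei (libraries 0.0705 to 0.581) against 1.03 in SST-like (0.364 to 1.76) and 1.25 in VIP-like nuclei (0.595 to 2.33). PV-like nuclei were 4.17-fold lower than the other types (2.84 to 6.31), SST-like 2.06-fold higher (1.53 to 2.77, in 9 of 10 libraries) and VIP-like 2.30-fold higher (1.65 to 3.16). Scn2b lay between 1.00 and 1.34 in the interneuron types and was within 2-fold in each comparison.

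The starts of Scn4b and Scn3b differed in accessibility in the same directions as their UMIs. The Scn4b start region, chr9:45138072-45139119, had 22.2 and 28.7 CPM, here per 1000000 reads in tested regions, in PV, 8.59 and 8.06 in SST, and 5.45 and 3.00 in VIP, so that both PV samples lay above the other 4. In edgeR's quasi-likelihood test, with Benjamini-Hochberg adjustment over 40338 tested regions, PV exceeded VIP by 2.58 on the log2 scale (SE 0.45, edgeR adjusted p = 0.00025). SST was below PV by 1.60 (log2 change -1.60, SE 0.40, edgeR adjusted p = 0.021), which was lost without PV replicate 1 (-1.73, edgeR adjusted p = 0.075), without PV replicate 2 (-1.41, edgeR adjusted p = 0.17) and with DESeq2 (DESeq2 adjusted p = 0.2). The Scn3b start region, chr9:40268802-40269890, had 5.56 and 11.7 in PV, 26.6 and 36.6 in VIP, and 54.4 and 27.3 in SST, with both PV samples lowest. PV was lower than VIP (log2 change -1.89, edgeR adjusted p = 0.0023), and SST higher than PV by 2.25 (SE 0.44, edgeR adjusted p = 0.0067), a call lost without PV replicate 1 (1.85, edgeR adjusted p = 0.051). With no filter on reads edgeR called 0 of 1236 member regions between SST and PV (92 at an unadjusted p under 0.05), so that each call between SST and PV given here was lost in that setting.

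Among L-type (Cav1) pores, Cacna1c, the main neuronal L-type pore, lay between 1.05 (VIP-like) and 1.67 (SST-like), and Cacna1d, which opens at lower voltage, between 0.377 (SST-like) and 0.724 (NPY-like). Neither was past 2-fold in any comparison among interneuron types. At Cacna1c, 8 of 13 tested regions were lower in PV than in VIP and 0 higher. Of all tested regions 24.6% were lower and 24.6% higher in PV than in VIP, and the counts at other genes below stand beside the same shares. The intron region chr6:118845706-118846499 had 33.4 and 33.0 CPM in VIP, 1.39 and 3.88 in PV, and 5.72 and 6.20 in SST. It was lower in PV (log2 change -3.65, SE 0.49, edgeR adjusted p = 3e-05) and in SST (-2.46, edgeR adjusted p = 0.00021). At Cacna1d, a region of 11 and 15 reads in PV had none in either SST sample, at least 9.56-fold higher in PV when SST is set to a floor of 3 reads over both samples (edgeR adjusted p = 0.0041). That call was lost without PV replicate 2 (edgeR adjusted p = 0.14), with no filter (edgeR adjusted p = 0.17) and with DESeq2, which gave it no adjusted p.

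Of the Cav2 pores, Cacna1a, the P/Q-type pore of fast release sites, was at 4.06 in SST-like, 4.20 in PV-like and 3.13 in NPY-like nuclei, and at 1.73 in VIP-like nuclei (libraries 0.751 to 2.47), 2.32-fold below the others (1.84 to 2.98). Typed by their own markers the VIP-like ratio was 0.552, no longer past 2-fold. Cacna1e, the R-type pore, was at 1.34 in SST-like nuclei (libraries 0.591 to 1.98), 0.790 in NPY-like, 0.751 in VIP-like and 0.406 in PV-like nuclei (0.0830 to 0.864). SST-like nuclei were 2.50-fold higher than the rest (1.90 to 3.29) and PV-like 2.63-fold lower, and interneurons were below excitatory nuclei. With nuclei typed by their own markers these ratios became 1.13, 0.572 and, against excitatory nuclei, 0.534, none past 2-fold. Cacna1a accordingly made up 90.8% of Cav2 UMIs in PV-like nuclei, 75.2% in SST-like, 79.2% in NPY-like and 69.1% in VIP-like, beside 58.2% to 69.4% in the excitatory layers. These shares set Cacna1a almost wholly against Cacna1e, since the third Cav2 gene, Cacna1b, had 47 UMIs in all kept nuclei. The regions at Cacna1a went both ways, with 4 of 15 tested higher and 3 lower in PV than in VIP, and 3 of these 7 calls were lost with DESeq2 (DESeq2 adjusted p = 0.11 to 0.15).

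T-type (Cav3) pores allow rebound bursts. Cacna1g was at 0.751 in VIP-like nuclei (libraries 0.198 to 1.53), 0.625 in NPY-like, 0.499 in SST-like and 0.173 in PV-like nuclei (0 to 0.576). PV-like nuclei were 3.44-fold lower than the other types (2.16 to 5.69, in 8 of 10 libraries), and VIP-like nuclei 2.22-fold higher (1.44 to 3.37), though in 6 of 10 libraries only. Cacna1i was at 0.198 in NPY-like nuclei, on 6 UMIs, and at 0.751 to 0.888 in the others, 4.16-fold lower (1.88 to 11.5), but its ratio for NPY-like nuclei turned to 1.12 when nuclei were typed by their own markers. Cacna1h had 25 UMIs in VIP-like nuclei (level 0.569) and 4, 13 and 1 in SST-like, PV-like and NPY-like nuclei. SST-like nuclei were lower by 3.86-fold (1.39 to 14.9). Both T-type genes with a higher level in VIP-like than in PV-like nuclei, Cacna1g and Cacna1h, had regions of that direction. Between these types Cacna1g was called by its UMIs, while Cacna1h, on 25 and 13 UMIs, had too few expected for a call. At Cacna1h, 5 regions were tested and 3 were lower in PV than VIP. The one at chr17:25425937-25426537 had 12.3 and 7.81 CPM in VIP, 0 in both PV samples, and 0 and 0.620 in SST, at least 8.99-fold higher in VIP than in PV (edgeR adjusted p = 0.00034). At Cacna1g, a region had 12.9 and 13.2 in VIP beside 1.39 and 1.55 in PV (log2 change -3.08, edgeR adjusted p = 0.00058).

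Each of the 3 alpha2delta genes with enough UMIs was past 2-fold between interneuron types. Cacna2d2 was at 4.81 in PV-like nuclei (libraries 3.36 to 6.17, median 4.64) and 3.55 in SST-like nuclei (1.06 to 4.66), and at 0.205 in VIP-like (0 to 0.741) and 0.395 in NPY-like nuclei (0 to 3.62, median 0). No VIP-like library reached any PV-like or SST-like one. All interneurons together were 16.5-fold above excitatory nuclei (14.6 to 18.5), with libraries at 2.43 to 4.07 against 0.127 to 0.272. PV-like nuclei were 2.41-fold higher than the other types (2.10 to 2.76), VIP-like 18.8-fold lower (9.85 to 41.2) and NPY-like 9.20-fold lower (5.24 to 17.9). In NPY-like nuclei most of its UMIs came from 1 library at 3.62, and without it the ratio to the other types was 0.0298. Cacna2d2 was among the 10 leading genes of the PV-like cluster, although it had no part in the clustering. Typed by their own markers, the ratios were 3.25 in PV-like nuclei, 0.147 in VIP-like nuclei and 19.2 for interneurons over excitatory nuclei.

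Cacna2d1 ran the other way. It was at 8.59 in NPY-like nuclei (libraries 5.61 to 16.9), 3.91 in VIP-like (2.57 to 5.30), 1.07 in PV-like (0.352 to 1.65) and 0.681 in SST-like nuclei (0.220 to 0.958), and the 2 lower types did not reach the 2 higher ones in any library. NPY-like nuclei were 6.00-fold higher than the other types (5.11 to 7.06) and VIP-like 2.09-fold higher (1.75 to 2.50), while SST-like nuclei were 4.08-fold lower (3.09 to 5.46) and PV-like 2.91-fold lower (2.41 to 3.53). Interneurons together were 3.27-fold below excitatory nuclei (3.02 to 3.54), but the layers stood at 3.94 (layer 5 PT) to 8.31 (layer 4), so that the pooled level of NPY-like nuclei was not below any layer and that of VIP-like nuclei was close to layer 5 PT. Typed by their own markers, NPY-like nuclei stayed 3.77-fold higher, but VIP-like nuclei came to 1.10 and interneurons over excitatory nuclei to 0.532. Cacna2d3 was at 2.71 in SST-like (1.89 to 3.71) and 2.34 in VIP-like nuclei (1.13 to 4.33), and at 0.724 in NPY-like and 0.376 in PV-like nuclei (0.162 to 0.880). It was 3.22-fold higher in SST-like nuclei (2.63 to 3.94) and 5.92-fold lower in PV-like nuclei (4.39 to 8.13). The SST-like ratio was 1.74 by their own markers, and that of PV-like nuclei stayed at 0.300. NPY-like nuclei were 2.00-fold lower (1.30 to 3.23), which in the second set of libraries alone was a ratio of 0.824 and by their own markers one of 1.16.

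As shares of the UMIs of these 3 genes, Cacna2d2 held 76.9% in PV-like nuclei (95% exact binomial interval 73.8 to 79.7, libraries 68.3 to 91.1) and 51.1% in SST-like nuclei (47.0 to 55.3, libraries 30.0 to 60.3). It held 3.17% in VIP-like and 4.07% in NPY-like nuclei. Cacna2d1 held 88.5% in NPY-like and 60.6% in VIP-like nuclei, and Cacna2d3 36.3% in VIP-like nuclei. The mixture of the 3 genes thus differed among the interneuron types, and the libraries' Cacna2d2 shares in PV-like and SST-like nuclei did not overlap.

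**Figure D3:**
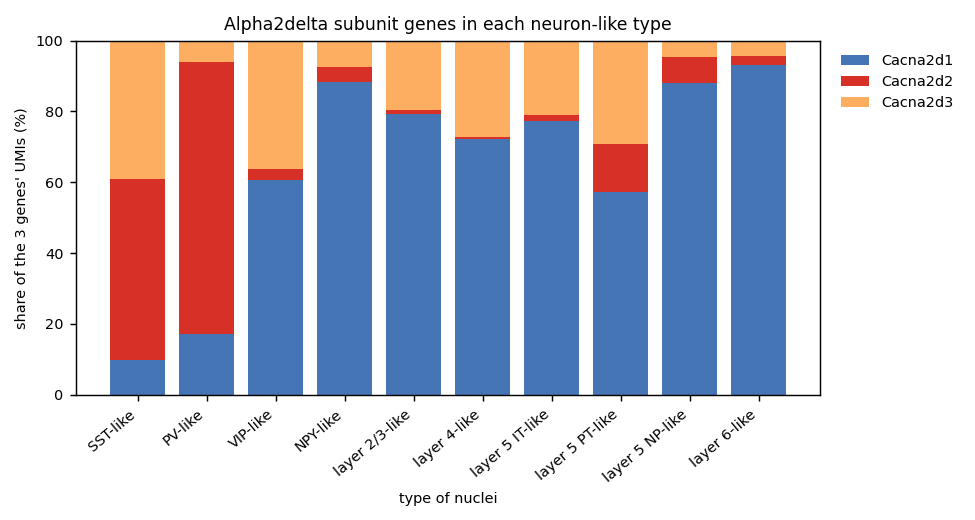
Stacked bars of the share (%) of Cacna2d1, Cacna2d2 and Cacna2d3 in the UMIs of these 3 genes in each interneuron-like type and excitatory layer. Cacna2d2 takes 76.9% in PV-like and 51.1% in SST-like nuclei, and Cacna2d1 takes 57.3% to 93.1% in the layers.

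Accessibility at Cacna2d2 was compared in 11 tested regions. Of these, 5 were higher and 1 lower in PV than in VIP, and 4 were higher and 1 lower in SST than in VIP, where 17.8% of all tested regions were higher and 18.4% lower. With DESeq2, 2 of the 5 regions higher in PV were lost (DESeq2 adjusted p = 0.059 and 0.16) and 3 of the 4 higher in SST (DESeq2 adjusted p = 0.08 to 0.095), and with no filter all 4 of the latter were lost (edgeR adjusted p = 0.064 to 0.15). An intron region at chr9:107451682-107452626 had 6.95 and 15.5 CPM in PV, 7.16 and 3.10 in SST, and 0 and 0.601 in VIP, a single read in the VIP samples together. It was higher in PV than in VIP (edgeR adjusted p = 0.0006), and no VIP sample reached a PV or SST sample. The region of the first sequence, chr9:107456464-107457216, went against the UMIs, with 43.6 and 39.6 in VIP, 4.17 and 10.9 in PV, and 9.30 and 9.31 in SST. It was lower in PV than in VIP (log2 change -2.48, SE 0.41, edgeR adjusted p = 0.00017) and in SST than in VIP (-2.15, SE 0.39, edgeR adjusted p = 0.0004). Regions of opposite direction thus lay in the same gene.

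At Cacna2d3, whose span also holds the gene Lrtm1, 2 of 10 tested regions were higher and 4 lower in PV than in VIP, and 2 of these 6 calls were lost with DESeq2 (DESeq2 adjusted p = 0.055 and 0.14). One far inside the gene at chr14:29030325-29031054, overlapping Lrtm1, had 20.2 and 22.5 CPM in PV, 0.681 and 0.601 in VIP, and 4.29 and 4.34 in SST. PV exceeded VIP there by 4.89 (SE 0.63, edgeR adjusted p = 2.4e-05), although among the interneuron types the Cacna2d3 level was lowest in PV-like nuclei. A second region had 35.4 and 28.8 in VIP and 6.25 and 6.99 in PV (log2 change -2.26, edgeR adjusted p = 0.00026), the direction of the UMIs. At Cacna2d1 both tested regions were lower in PV than in VIP. One had 10.2 and 10.8 in VIP and 0 and 0.776 in PV (log2 change -4.55, edgeR adjusted p = 0.00047). The other, at the gene start, had 13.6 and 8.41 in VIP and 2.78 and 2.33 in PV (-2.05, edgeR adjusted p = 0.007), and was lost with DESeq2 (DESeq2 adjusted p = 0.071), without PV replicate 2 (edgeR adjusted p = 0.053) and without VIP replicate 1 (edgeR adjusted p = 0.11).

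**Figure D4:**
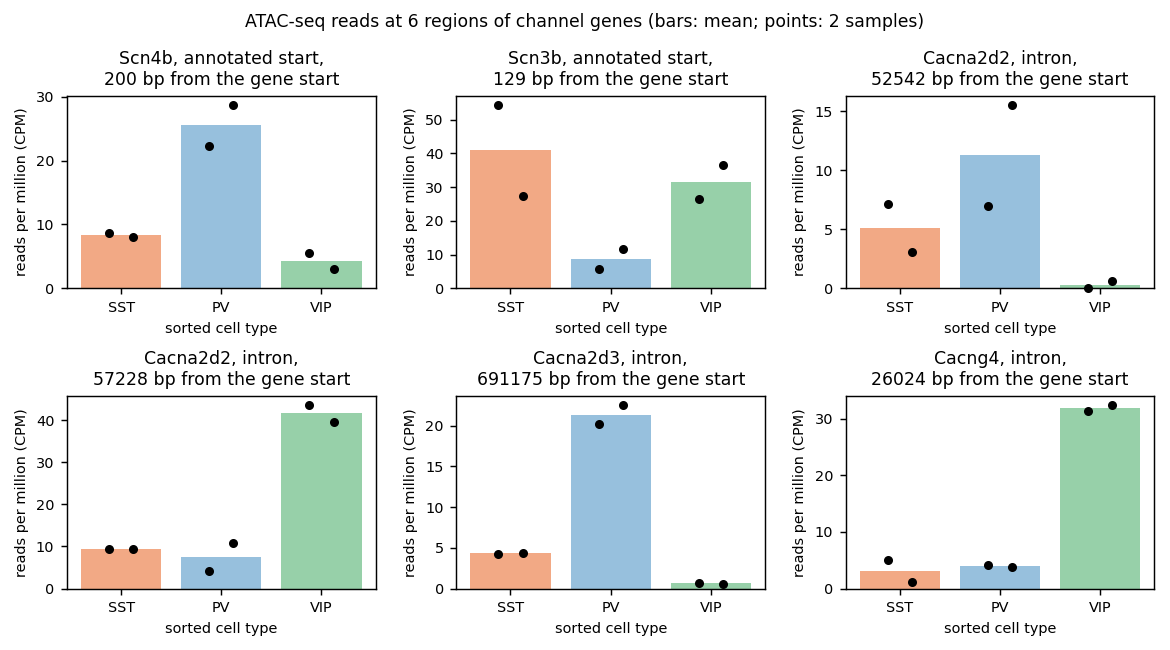
ATAC-Seq CPM at 6 regions of channel genes in SST, PV and VIP samples, with bars for the mean and points for the 2 samples; each axis starts at 0. The Scn4b start is highest in PV and the upper Cacna2d2 region lowest in VIP, while the lower Cacna2d2 region and the Cacng4 region are highest in VIP.

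The 4 cytoplasmic beta subunits lay within 2-fold in each comparison of 1 interneuron type with the other 3. Cacnb4 was at 8.84 in SST-like, 7.24 in PV-like, 4.89 in VIP-like and 7.80 in NPY-like nuclei. Cacnb1, Cacnb2 and Cacnb3 lay at 0.203 to 0.365, 0.329 to 0.819 and 0.631 to 1.51, with the highest of each in SST-like (Cacnb1), VIP-like (Cacnb2) or NPY-like nuclei (Cacnb3). Against excitatory nuclei Cacnb1 was 2.83-fold lower in interneurons (2.25 to 3.59). A region in Cacnb2, chr2:14719042-14719791, had 28.5 and 33.4 CPM in PV, 3.40 and 3.60 in VIP, and 5.72 and 5.58 in SST. It was higher in PV than in VIP by 3.11 (SE 0.43, edgeR adjusted p = 4.5e-05) and lower in SST than in PV (log2 change -2.43, SE 0.40, edgeR adjusted p = 0.003), while Cacnb2 UMIs of SST-like and PV-like nuclei stood at 0.426 and 0.428.

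Of the gamma subunit genes, Cacng4 and Cacng5 were higher in VIP-like nuclei and lower in PV-like nuclei. Cacng4 was at 1.18 in VIP-like nuclei (libraries 0 to 2.04), 0.494 in NPY-like, 0.316 in SST-like and 0.113 in PV-like nuclei (0 to 0.243). VIP-like nuclei were 5.19-fold higher than the other types (3.49 to 7.71), in 9 of 10 libraries, and PV-like nuclei 5.28-fold lower (3.04 to 9.80). Cacng5 followed, with 1.02 in VIP-like (0.247 to 1.63), 0.511 in SST-like, 0.395 in NPY-like and 0.0526 in PV-like nuclei (0 to 0.292). It was 4.13-fold higher in VIP-like nuclei (2.74 to 6.17) and 12.0-fold lower in PV-like nuclei (5.63 to 30.7). Cacng5 was also 8.56-fold higher in interneurons than in excitatory nuclei (6.39 to 11.5), and Cacng4 3.14-fold (2.48 to 3.96, in 9 of 10 libraries). Markers of oligodendrocyte precursors, where Cacng4 was highest, stood at 1.14 UMIs per 10000 in VIP-like nuclei (libraries 0 to 3.95) and 0.328 to 0.593 in the other interneuron types, and at 125 in OPC-like nuclei. Their part in the Cacng4 level was not tested.

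Cacng2 (stargazin) was at 4.59 in PV-like nuclei (libraries 2.54 to 6.44) against 1.91 to 2.73 in the other interneuron types, 1.95-fold and so below the limit. Cacng3 was at 1.67 in SST-like nuclei (1.14 to 2.19) against 0.527 to 0.637, 2.83-fold higher (2.20 to 3.65) but 1.53-fold by their own markers. Cacng7 was at 2.60 in PV-like nuclei and 1.59 to 1.80 in the others, and in all interneurons 2.50-fold above excitatory nuclei (2.28 to 2.75), or 1.92-fold by their own markers.

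The single tested region of Cacng4, chr11:107768154-107768913, lies in an intron and holds the second sequence. It had 31.3 and 32.4 CPM in VIP, 4.17 and 3.88 in PV, and 5.01 and 1.24 in SST, with peaks of the authors in the VIP samples only. It was lower in PV (log2 change -2.96, SE 0.47, edgeR adjusted p = 0.00013) and in SST (-3.37, SE 0.49, edgeR adjusted p = 6.5e-05). All 5 tested regions of Cacng5 were lower in PV than in VIP with edgeR, and 3 of these calls were lost with DESeq2 (DESeq2 adjusted p = 0.16, 0.16 and 0.06). The first of the 3, nearest the start, was also lost with no filter (edgeR adjusted p = 0.16) and without any 1 of the PV or VIP samples (edgeR adjusted p = 0.053 to 0.14). The next was lost with the replicate block (edgeR adjusted p = 0.062), with no filter (edgeR adjusted p = 0.14) and without any 1 of the 6 samples (edgeR adjusted p = 0.069 to 0.28), and the last without VIP replicate 2 (edgeR adjusted p = 0.089). The one in a coding exon had 27.2 and 21.0 in VIP, 4.17 and 4.66 in PV, and 2.15 and 4.96 in SST (log2 changes of -2.43 and -2.70, edgeR adjusted p = 0.00053 and 0.00031).

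Excitatory layers differed in 11 of 35 members by at least 2-fold in at least 1 layer, where 22.4% of all genes did. Typed by their own markers, the layers had 15 members with enough UMIs and 4 past 2-fold, 1 of them among the 11. The layer 5 PT-like nuclei, which project below the cortex and had the most UMIs per nucleus (median 1696), had 4 of 27 members higher than the other layers (3.59% of all genes) and 2 lower (5.39%). Cacna1h was at 0.997 there (libraries 0.559 to 1.48) and at no more than 0.194 in any other layer, 8.01-fold higher (6.55 to 9.79). Cacna2d2 was at 0.922 (0.622 to 1.5) against 0.0710 to 0.475, 7.31-fold higher (5.95 to 8.96). Scn4b was at 1.54 (1.06 to 2.02) against 0.338 to 0.925, 3.53-fold higher (3.07 to 4.05), and Scn1a at 1.42 (0.809 to 1.96) against 0.490 to 0.687, 2.45-fold (2.13 to 2.81). All 4 were higher in 10 of 10 libraries. Scn4b, Scn1a and Cacna2d2 were also higher in PV-like nuclei among interneurons, and summed PV markers stood at 1.57 in layer 5 PT-like nuclei (libraries 1.05 to 1.94) and 0.282 to 0.376 in the other layers, against 22.1 in PV-like nuclei. Markers of all inhibitory cells stood at 2.04 in layer 5 PT-like nuclei, within the 1.34 to 2.19 of the other layers. The part of these markers in the 4 levels was not tested. Cacng2 was 2.01-fold lower in layer 5 PT-like nuclei (1.74 to 2.34), which turned to a ratio of 1.19 by their own markers on 74 nuclei, and Cacng4 was 2.31-fold lower (1.23 to 4.88).

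**Figure D5:**
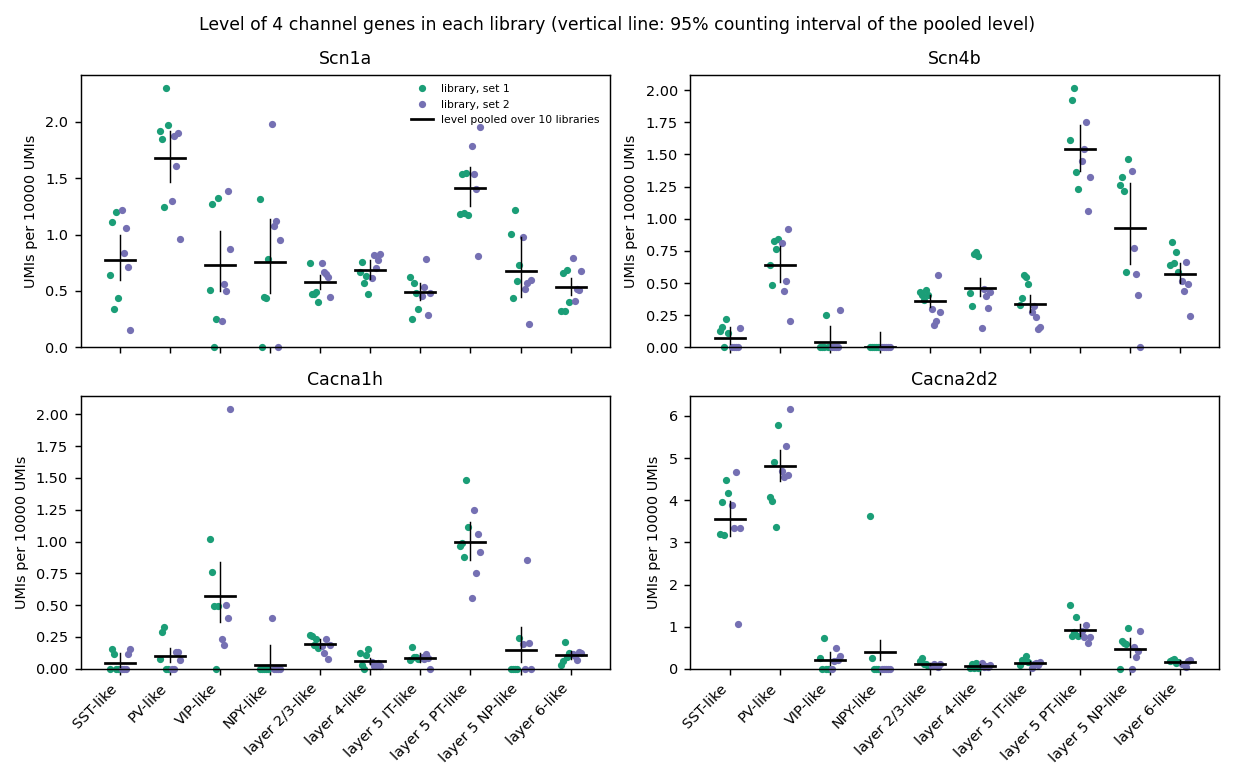
Level (UMIs per 10000 UMIs) of Scn1a, Scn4b, Cacna1h and Cacna2d2 in each of the 10 libraries (points, coloured by library set) for 4 interneuron-like types and 6 excitatory layers, with the pooled level as a horizontal line and its 95% counting interval as a vertical one. Layer 5 PT-like nuclei are the highest layer for all 4 genes, and PV-like nuclei the highest interneuron type for Scn1a, Scn4b and Cacna2d2.

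The other layers differed in fewer members. Layer 4 nuclei had 1 of 31 members higher (1.42% of all genes), Cacna2d3 at 3.14 (libraries 2.81 to 3.83), 2.05-fold above the other layers (1.92 to 2.20), and 2 lower (5.24%), Cacna1h by 4.20-fold and Cacna2d2 by 3.31-fold. Layer 6 nuclei had 0 of 31 higher (2.06%) and 3 lower (7.21%). Cacna2d3 was at 0.282 there (0.153 to 0.535), 7.87-fold lower (6.48 to 9.65), and Cacna1g at 0.180 (0.0855 to 0.309), 3.99-fold lower (3.12 to 5.19). Cacna1i held 81.9% of the Cav3 UMIs of layer 6. Layer 5 NP nuclei, with 528 the smallest group, had 0 of 21 higher (2.95%) and 3 lower (11%), with Cacna2d3 at 0.300 (0 to 0.881), 6.29-fold lower (3.60 to 12.2), and Cacng3 2.88-fold lower. Layer 2/3 nuclei had 0 of 35 higher (3.13%) and 2 lower (2.69%), Cacng5 by 2.70-fold (1.48 to 5.31) and Cacna2d2 by 2.25-fold (1.73 to 2.95). Layer 5 IT nuclei had 0 of 31 higher (0.935%) and 2 lower (2.34%), Cacna1h by 2.70-fold and Cacng5 by 2.12-fold, the latter with an interval of 0.983 to 5.46 that includes no difference. Cacna2d3 thus divided the layers, with 1.80 to 3.14 in layers 2/3, 4, 5 IT and 5 PT and 0.282 to 0.300 in layers 5 NP and 6, and no library of the latter reached one of the former. Layers 5 NP and 6 also shared layer 6 markers, as given above, and the part of these in the Cacna2d3 levels was not tested.

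In the pooled glia-like nuclei, 26 of 31 members were lower than in neurons (25.3% of all genes) and 1, Cacng4, was higher (16.9% of all genes). Vascular nuclei, which are not glia, gave 861712 UMIs to this pool. With each nucleus typed by its own markers, 18 of these 27 stayed past 2-fold. The members together stood at 53.0 UMIs per 10000 in neurons and 18.1 in glia-like nuclei, with 22.6 in astrocyte-like, 15.6 in oligodendrocyte-like, 41.2 in OPC-like, 27.3 in microglia-like and 6.20 in vascular nuclei. In the same 5 types, 6 markers of excitatory neurons stood at 0.339 to 0.589, 0.134 to 0.304, 0.259 to 0.472, 0.402 to 0.561 and 0.0921 to 0.181 of their neuronal level. The median ratio of the 25 fuller members to their neuronal level was 0.406, 0.253, 0.505, 0.522 and 0.134. In OPC-like and microglia-like nuclei the median member thus lay less than 2-fold below its neuronal level. The median member lay within the range of these markers in 4 types and above it in OPC-like nuclei, and the part of free neuronal RNA in the members' UMIs was not tested. Mitochondrial genes together stood at 18.5 to 28.1 UMIs per 10000 in the 4 glial types and 171 in vascular nuclei, against 5.01 to 13.2 in the interneuron types and layers, and their part in the members' levels was not tested. Above the highest ratio of the 6 markers lay 3 members in astrocyte-like, 8 in oligodendrocyte-like, 14 in OPC-like, 9 in microglia-like and 5 in vascular nuclei. The share of all genes above these ratios was not counted, so the counts are not read as a trait of the members.

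Cacng4 was the exception. It was at 12.2 in OPC-like nuclei on 227 UMIs (libraries 4.88 to 17.5), 81.7 times its neuronal level, and at 0.219 in astrocyte-like, 0.0812 in vascular and 0.0283 in microglia-like nuclei. It had no UMI in 527916 of oligodendrocyte-like nuclei. Over all glia-like nuclei it was 6.06-fold higher than in neurons (5.13 to 7.14), in 10 of 10 libraries, or 2.94-fold in nuclei over 500 UMIs and 2.90-fold by their own markers, and it made up 76.7% of gamma subunit UMIs in OPC-like nuclei. It was among the 10 leading genes of their cluster, although it had no part in the clustering. The next members in OPC-like nuclei were Cacna2d2 at 1.86, Scn3b at 1.60, Cacng7 at 1.47 and Scn2a at 1.33 times their neuronal level. These ratios carry no interval and rest on 185247 UMIs of OPC-like nuclei, and Scn2a had 417 UMIs in all kept nuclei. The neuronal level pools excitatory-like with interneuron-like nuclei, between which Cacna2d2 and Cacng7 differed as given above.

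The 15 members with fewer than 300 UMIs had few UMIs each. Scn3a had 292, Scn9a 254, Cacng5 232, Cacng8 119, Cacna2d4 117 and Scn7a 113, and the other 9 had 7 (Cacng1) to 56. The N-type pore Cacna1b, a main presynaptic channel, had 47 UMIs in all kept nuclei, and the skeletal and retinal pores Cacna1s and Cacna1f had 35 and 36. How well the transcript ends of these genes are captured was not tested, so such counts are not read as absence. Scn7a had 13 of its UMIs in VIP-like nuclei (level 0.296). The start of Scn9a, chr2:66634418-66635257, had 41.5 and 54.0 CPM in SST, 30.6 and 39.6 in VIP, and 13.2 and 8.54 in PV, higher in SST than in PV by 2.12 (SE 0.35, edgeR adjusted p = 0.0031) and lower in PV than in VIP (log2 change -1.68, edgeR adjusted p = 0.0012).

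Over all members, 176 of 1253 regions within a gene or the 2000 bases before it had enough reads to test, of which 101 were in introns, 39 at annotated starts and 20 in coding exons. SST and PV differed at 14 of them, 6 higher in SST (3.96% of all 40338 tested regions) and 8 lower (4.33%). SST and VIP differed at 59, 17 higher in SST (17.8%) and 42 lower (18.4%), and PV and VIP at 88, 31 higher in PV (24.6%) and 57 lower (24.6%). Where a member's UMIs also differed at least 2-fold between the same types, the called regions had the direction of the UMIs in 4 of 5 for SST and PV, 13 of 17 (76.5%) for SST and VIP and 30 of 39 (76.9%) for PV and VIP. Over all coding genes these shares were 70.2%, 67% and 63%. Among the exceptions, 2 of 5 tested regions at Scn8a were lower in PV than in VIP while its UMIs were higher, and both calls were lost with DESeq2 (DESeq2 adjusted p = 0.066 and 0.093). The ATAC-Seq samples were whole cortex of uninjected mice and the nuclei injected V1, so source and treatment cannot be told apart from assay in this comparison.

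Partner genes of these channels, 31 of 32 listed found among the columns, were counted by the same rule. Against excitatory nuclei 4 of 29 were higher in interneurons (5.59% of all genes), with Fgf11 at 6.07-fold and Stac2 at 2.90-fold, and 4 lower (7.68%), with Cnih3 at 2.82-fold and Ryr3 at 2.41-fold. Fgf11 belongs to the intracellular factors that bind sodium channels, and Stac2 to adaptors of L-type channels. In PV-like nuclei, where 4.72% of all genes were higher and 6% lower, 0 of 27 were higher and 2 lower (Ryr3 by 5.67-fold, Cnih2 by 2.69-fold). In SST-like nuclei, with 2.43% and 5.43% of all genes, 0 of 25 were higher and 1 lower (Shisa9, an AMPA receptor partner, by 8.38-fold). VIP-like nuclei, with 3.45% and 8.4%, had 1 of 25 higher (Shisa9, 4.15-fold) and 3 lower. NPY-like nuclei, with 3.19% and 7.55%, had 2 of 23 higher (Fgf13 by 4.49-fold, Rimbp2 by 4.22-fold) and 4 lower (Stac2 by 8.63-fold). Rimbp2, which ties calcium channels to release sites, was 4.34-fold lower in VIP-like nuclei. Layer 5 PT-like nuclei, with 3.59% and 5.39%, had 2 of 28 higher, Fgf11 (6.45-fold) and Ryr3 (5.69-fold), and 2 lower. The other layers had 0 of 30 (layer 2/3), 1 of 29 (layer 4), 0 of 29 (layer 5 IT), 0 of 24 (layer 5 NP) and 1 of 29 (layer 6) higher, and 3, 3, 0, 4 and 2 lower, where 3.13%, 1.42%, 0.935%, 2.95% and 2.06% of all genes were higher and 2.69%, 5.24%, 2.34%, 11% and 7.21% lower. In glia-like nuclei 1 of 29 was higher, Cachd1 at 5.38-fold (16.9% of all genes), and 21 were lower (25.3%).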

How the data were processed

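snRNA-Seq was 1 sample of 10 inDrops libraries. Reads were aligned by the authors to GRCm38 plus the viral barcodes. What they deposited are raw counts of UMIs for every barcode and gene. Whether counting used strand is not given in the sources used here. For the 6 ATAC-Seq samples the authors trimmed reads with Trimmomatic 0.33, aligned them to mm10 with Subread 1.4.6-p3, removed duplicates and deposited raw read counts over 323369 reference regions. The deposited peak lists give a −log10 q-value for each peak, as the authors' peak caller wrote it, and were used only to say in which samples a peak was listed. The authors' columns of specificity and fold were not used.

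Nuclei with more than 200 UMIs were kept, and 1164 viral columns were removed. Clustering used Seurat 5.3.0 in R 4.3.3 with 5412 variable genes, none a member, 30 principal components and a resolution of 1.5, which gave 30 clusters. For each cluster, markers over 1.5 times the mean of clusters were counted, and the list with the highest fraction of such markers gave the name, given at least 3 of them, while excitatory clusters took a layer from the layer lists. This naming rule was written once the clusters had been examined. Doublets were not removed. UMIs were summed by library and type, and ratios have exact 95% intervals.

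Regions were assigned to a member when they overlapped its GENCODE span or the 2000 bp before its start. The 6 ATAC-Seq samples were tested in a single fit with edgeR 4.0.16 (quasi-likelihood, TMM, filterByExpr, no replicate block) at a Benjamini-Hochberg threshold of 5%. The quasi-likelihood test gives no standard error, and each SE is the size of the log2 change divided by the square root of its F statistic. DESeq2 1.42.0 was an alternative, and the RNA and ATAC-Seq scripts were tested on simulated data. Each sample had 1801883 to 2256073 reads in the reference regions, and floors and intervals cover counting error only. Replicate numbers are shared between types, and deviations of same-numbered samples correlated at -0.0366, 0.0233 and 0.0297. With 2 replicates per type these values cannot decide whether the numbers mark a shared preparation, and the samples were treated as unpaired.

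The members and lists were chosen with earlier results of these data known. By the rule for named genes, members with at least 300 UMIs are described in full, the others by totals, and regions are named if among the 3 with the lowest adjusted p of a contrast or at a member past 2-fold in UMIs. Motifs, printed sequences and the other low members given with levels were chosen after values were seen. Promoters are those of RefSeq, build GRCm38.p6. Some members and regions are not reported here.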

Additional observations from a re-analysis of the deposited data

Results flagged for a closer look

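Member UMIs also lay outside the types compared, above the 3 UMIs that a count of 0 allows. Nuclei of clusters without a type name held 6419 member UMIs, 31.2 per 10000 UMIs. The lymphocyte-like nuclei held 189, or 13.5 per 10000. The barcodes with 200 UMIs or fewer, which were left out, held 8005, or 44.0 per 10000, within the range of the interneuron types.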

How the results depend on the processing

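Counts of members past 2-fold are given first. Typing by own markers gave each nucleus the type whose markers stood furthest above their mean share, if far enough above it. It left 21204 of 32335 nuclei without a name and 19 to 129 in each layer. It called 1374 nuclei NPY-like, of which 314 were among the 343 of the clusters. Of the SST-like, PV-like and VIP-like nuclei, 750 of 884, 655 of 1279 and 462 of 568 kept their type. The 2 typings thus compare partly different nuclei. With each nucleus typed by its own markers, the count fell to 5 for interneurons against excitatory nuclei (8), 3 for SST-like (7), 4 for VIP-like (8) and 4 for the layers (11), where 15 members in place of 35 had enough UMIs and 1 of the 4 was shared. It was 4 for NPY-like nuclei (2 shared), 10 for PV-like (9 of 11 shared) and 20 for glia (18 of 27 shared), and 41 of 67 folds stayed past 2-fold. SST-like nuclei kept 3 of their 7 main calls and VIP-like nuclei 4 of 8. Some calls given above without a value by own markers were therefore lost or had too few UMIs. The ratios that reversed were those of Cacna1i (1.12) and Cacna2d3 (1.16) in NPY-like and of Cacng2 (1.19) in layer 5 PT-like nuclei. Without a filter on expected UMIs the count was 16 for VIP-like, 10 for NPY-like nuclei and 21 for the layers. With at least 30 expected it was 3 for VIP-like nuclei, and it was 5 with library set 2 alone. Leaving out a library gave 7 to 9 for interneurons against excitatory nuclei, 11 to 14 for PV-like, 6 to 8 for SST-like, 8 to 11 for VIP-like, 3 to 5 for NPY-like nuclei, 10 to 14 for the layers and 24 to 26 for glia.

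Regions called for SST against PV, SST against VIP and PV against VIP (14, 59 and 88) were 4, 35 and 48 with DESeq2, and 0, 34 and 55 with no filter, where 92, 177 and 213 had an unadjusted p under 0.05. Within 1000 bp of a start, where 63 regions were tested, they were 6, 10 and 23. Summed per gene over 38 genes, 0, 7 and 13 were called (7, 15 and 22 at an unadjusted p under 0.05). With the replicate block they were 14, 57 and 83, although nothing but the number is known to link the samples. Leaving out a sample gave 5 to 27 (5 without PV replicate 1, 7 without PV replicate 2, 27 without SST replicate 1), 37 to 79 and 54 to 135, with 251 to 263 regions tested in place of 176. For SST against VIP, 17 of 59 were higher, 5 of 35 with DESeq2 and 1 of 34 with no filter. The cause of these changes was not tested. The share of all regions called in each of these settings is not given here. The counts therefore do not tell a change at members from one at all regions. The 15 members under 300 UMIs and the regions under the filter had few counts, and what these could hide was not tested.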
